A study of Mus musculus with 18 samples.

Results

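The 10 genes described here encode the granins and neuropeptides of the regulated secretory pathway: *Chga*, *Chgb*, *Scg2*, *Scg3* and *Vgf* of the granin group, the peptide precursors *Ppy*, *Npy* and *Cartpt*, and the convertase partners *Scg5* and *Pcsk1n*. They were listed by symbol and matched to 10 of the 55414 genes with counts, and 9 of them were among the 17901 genes that had enough reads to be tested. *Npy* was the member below that limit. The list was chosen by the family of the genes and, in part, by the higher counts of *Ppy* after Zfp598 knockdown, so the levels of *Ppy* in the Zfp598 libraries are given as a description, with no test.

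RNA was measured in Neuro-2a (N2A) cells, a mouse neuroblastoma line, 72 h after transfection with 1 of 6 siRNAs. Knockdown (KD) used 2 siRNAs, A and B, for each of a negative control (Scramble), *Fmr1*, which encodes the RNA-binding protein FMRP, and *Zfp598*, which encodes a ubiquitin ligase that recognizes collided ribosomes. Each siRNA had 3 libraries, 18 in all, made from total RNA after removal of ribosomal RNA. The study looked for mRNAs that rise when either protein is lost, and in particular for those shared by both depletions, and it pooled the 6 libraries of each condition. All cells share the line, the transfection reagent and the time point, and each letter A or B names a different sequence in each condition, so that siRNA A of one target has no tie to siRNA A of another beyond the letter.

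Granins are acidic proteins that are packed with peptide hormones into dense-core vesicles, the organelles whose contents neurons and endocrine cells release on stimulation. Prohormone convertases cleave the precursors inside these vesicles, and several granins are themselves cleaved into active peptides. Cells of the sympathetic and adrenal lineage, from which neuroblastoma arises, are a classic source of granins, and blood chromogranin A is used as a marker of neuroendocrine tumors.

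Several granin and neuropeptide genes carry a cAMP response element (CRE), the palindrome TGACGTCA bound by CREB-family factors, close to their start. RefSeq promoter sequence (GRCm38.p6, an earlier build than the GRCm39 used for the counts) was at hand for 9 of the 10 genes, the one missing being *Vgf*. Within the 250 bases before the start, the full CRE was found in *Scg2*, *Chgb* and *Cartpt*, at 68, 72 and 112 bases before the start. It occurred in 1.77% of the 27025 genes in the table. The core TGACG, read on both strands and contained in every full CRE, was the sole match in *Chga* (44 bases before the start), *Scg3* (30) and *Scg5* (175), and 19.8% of genes held it. Neither was found in *Ppy*, *Npy* or *Pcsk1n* in this window. The last 120 bases before the start are shown for the genes with a full CRE, for *Chga* with the core alone and for *Ppy* with neither, 5′ to 3′ on the strand of the gene, with the CRE or its core in capitals.
*Scg2* (chr1:79440027-79440146, minus strand): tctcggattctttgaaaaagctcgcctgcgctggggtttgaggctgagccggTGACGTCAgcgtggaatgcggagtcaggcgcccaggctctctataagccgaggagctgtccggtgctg
*Chgb* (chr2:132781522-132781641, plus strand): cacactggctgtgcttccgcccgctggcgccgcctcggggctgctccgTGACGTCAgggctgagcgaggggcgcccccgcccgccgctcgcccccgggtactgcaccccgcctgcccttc
*Cartpt* (chr13:99900684-99900803, minus strand): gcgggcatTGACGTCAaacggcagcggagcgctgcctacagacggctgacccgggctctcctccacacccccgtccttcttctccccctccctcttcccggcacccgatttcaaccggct
*Chga* (chr12:102554821-102554940, plus strand): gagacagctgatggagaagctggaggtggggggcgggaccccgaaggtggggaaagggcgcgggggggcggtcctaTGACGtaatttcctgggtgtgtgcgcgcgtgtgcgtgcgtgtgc
*Ppy* (chr11:102101320-102101439, minus strand): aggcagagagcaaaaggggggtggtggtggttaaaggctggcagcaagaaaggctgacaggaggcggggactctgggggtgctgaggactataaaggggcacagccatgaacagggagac
These matches describe the letters of the window and nothing more. Over the 18 libraries the log2 level of *Chgb*, which holds the full element, had a Pearson r of 0.83 with that of *Chga*, which holds the core alone.

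The libraries held 7674724 to 15414590 counts. *Fmr1* ranged from 15.7 to 27.5 CPM (counts per 1000000 counts of the library size after TMM scaling) in the *Fmr1* KD libraries and from 51.1 to 68.7 in Scramble KD (log2 fold change -1.43, adjusted p = 1.26e-05). *Zfp598* ranged from 32.2 to 48.7 CPM in its KD and from 103 to 128 in Scramble KD (log2 fold change -1.53, adjusted p = 1.17e-08), with no overlap in either case. Of 14 noradrenergic neuroblastoma markers, 13 passed the filter in these cells, *Dbh* among them. One feature had the most counts over the 18 libraries together and no entry in the annotation used here. It took 5.00 to 11.1% of the counts in 16 libraries, but 15.2% and 25.8% in *Zfp598* siRNA A replicates 2 and 3. Values without these libraries, or with the share as a covariate, are given beside some of the calls they ended or added, not all. *Fmr1* siRNA B replicate 1 held 69.2 summed CPM of 11 pluripotent stem cell markers with none of them at 0, against 4.28 to 10.1 in the other libraries with 6 to 8 of them at 0. Summed fibroblast markers ranged from 23.6 to 34.2 CPM in Scramble KD and from 9.75 to 25.8 in the *Fmr1* and *Zfp598* KD libraries. Of these 7 markers, 3 to 4 were at 0 in the Scramble libraries and 2 to 5 in the others. *Pdgfrb*, a pericyte and fibroblast receptor among them, was lower in both pooled knockdowns (log2 -0.97 and -0.96, adjusted p = 0.00366 and 0.0149), and *Col1a1*, the other fibroblast marker with enough counts, stood at 0.20 and 0.25 (adjusted p = 0.847 and 0.821). The 6 macrophage markers summed to 0.96 to 3.36 CPM throughout. The part of these marker signals in the results below was not tested, and in bulk RNA fewer cells of a type cannot be told apart from less RNA per cell.

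Levels of the members spanned over 3 orders of magnitude in control cells when counts were divided by exon length. In Scramble KD, *Vgf* was highest, at 345 ± 41.2 CPM per kb of exon (mean ± SD, n = 6), followed by *Scg2* at 126 ± 8.27. *Pcsk1n* (56.6 ± 27.2) and *Chgb* (51.7 ± 29.4) overlapped in their libraries. *Chga* (14.5 ± 6.23), *Scg3* (10.9 ± 1.43) and *Scg5* (9.11 ± 1.36) formed the next group, each overlapping its neighbor in this order. The peptide precursors were lowest, with *Cartpt* at 2.31 ± 0.305 and *Ppy* at 2.01 ± 0.935 CPM per kb, which overlapped, and *Npy* at 0.207 ± 0.206. After *Zfp598* knockdown the place of *Ppy* in this order depended on the siRNA. With siRNA A its mean, 5.55 ± 0.744 CPM per kb (n = 3), was below that of *Scg3* (7.98 ± 1.97). Their libraries overlapped, with *Ppy* at 6.40 and *Scg3* at 6.24 in replicate 3. With siRNA B *Ppy*, at 30.4 ± 1.73 (n = 3), was above *Chga* (11.9 ± 1.83).

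**Figure D1:**
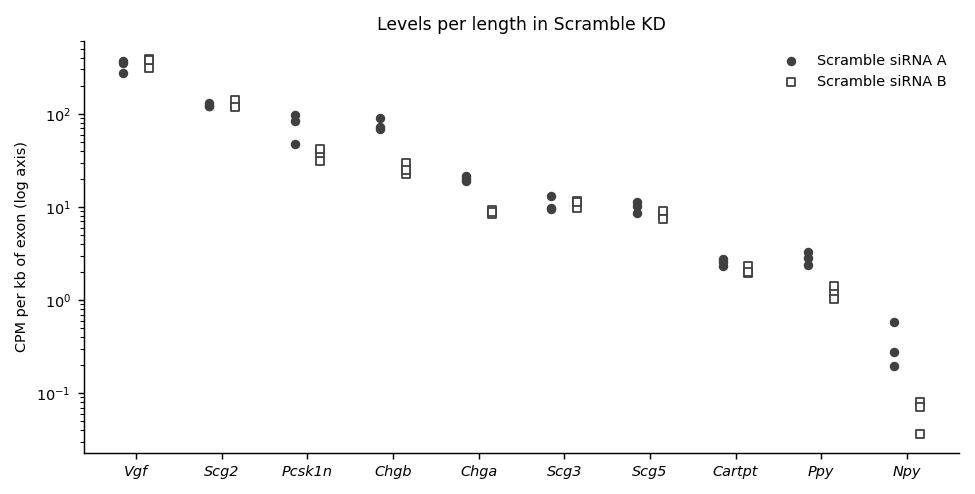
Level of each gene in the 6 Scramble KD libraries, in CPM per kb of annotated exon on a log axis, with filled circles for siRNA A and open squares for siRNA B. *Vgf* sits between 278 and 385 CPM per kb and *Npy* below 0.59.

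In the pooled comparisons of 6 libraries against 6 (edgeR's quasi-likelihood test, Benjamini-Hochberg adjustment over all genes), *Vgf* was the member that fell in both knockdowns. In *Fmr1* KD, 1 of 9 members passed an adjusted p of 0.05, beside 6.54% of all genes tested. In *Zfp598* KD, 2 of the 8 members open to a test passed, *Vgf* and *Scg3*, both lower, beside 1.96% of all genes. The median log2 fold change of the members tested was -0.28 in each knockdown, beside 0.003 and 0.012 for all genes. Both comparisons share the Scramble libraries, so they are not independent of each other. The study made each siRNA's knockdown in triplicate, while the labels do not say whether the cultures were grown apart, so p-values measure the spread between these libraries.

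The members split further when each siRNA was compared with the same-letter Scramble siRNA, using 3 libraries on each side in a model of all 6 siRNA groups. With *Fmr1* siRNA A, 6 of 9 members passed (1 higher and 5 lower, beside 23.6% of all genes), and with *Fmr1* siRNA B, 3 of 9 passed (2 higher and 1 lower, beside 22.7%). The 1 higher with *Fmr1* siRNA A was *Ppy*, whose level in Scramble KD was part of its choice. With *Zfp598* siRNA A, 5 of 8 passed (1 higher and 4 lower, beside 11.9%), and with *Zfp598* siRNA B, 6 of 8 passed (2 higher and 4 lower, beside 26.8%). *Vgf* was lower with all 4 knockdown siRNAs. *Chga* and *Chgb* were lower with both A siRNAs and higher with both B siRNAs. The summed noradrenergic markers moved with part of this split, at 1661 to 1827 CPM with Scramble siRNA A and 1093 to 1222 with Scramble siRNA B, at 1217 to 1341 and 1377 to 1573 with *Fmr1* siRNAs A and B, and at 1577 to 1914 and 1602 to 1829 with *Zfp598* siRNAs A and B. Their part in the *Chga* and *Chgb* values was not tested.
The siRNAs of 1 condition also differed from each other. Between the Scramble siRNAs, 4 of 9 members passed, all lower with siRNA B (beside 22.7% of all genes). Among them was *Ppy*, whose level in Scramble KD was part of its choice. Between the *Fmr1* siRNAs 3 of 9 passed (beside 24.3%), and between the *Zfp598* siRNAs 6 of 8 passed (beside 35.3%). The difference between the siRNA B and siRNA A effects, tested as an interaction, passed for 3 of 9 members in *Fmr1* KD (*Chgb*, *Chga* and *Vgf*, beside 21.8% of all genes) and for 5 of 8 in *Zfp598* KD (those 3 with *Scg2* and *Scg5*, beside 21.9%). Each effect is taken against the same-letter Scramble siRNA, so a difference between the Scramble siRNAs enters these values.

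**Figure D2:**
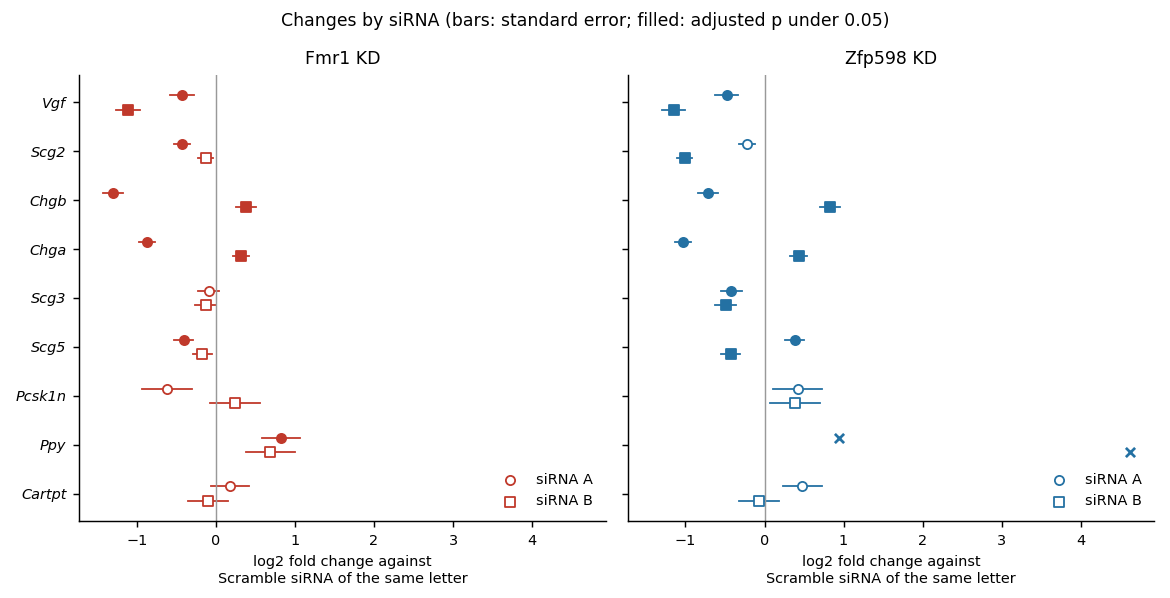
Log2 fold change of 9 members with each knockdown siRNA against the Scramble siRNA of the same letter, with bars for the standard error, circles for siRNA A, squares for siRNA B and filled symbols at an adjusted p under 0.05; crosses mark *Ppy* in *Zfp598* KD, shown with no test. *Vgf* lies left of 0 with all 4 siRNAs, while *Chga* and *Chgb* lie left of 0 with siRNA A and right of 0 with siRNA B.

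*Vgf* encodes a nerve growth factor-inducible precursor that is cut into several active peptides (chr5:137055246-137062205 in GRCm39, plus strand, protein coding). In Scramble KD it measured 1090, 827 and 1054 CPM with siRNA A and 932, 1143 and 1114 with siRNA B. In *Fmr1* KD it measured 728, 695 and 783 with siRNA A and 423, 518 and 538 with siRNA B. In *Zfp598* KD it measured 513, 825 and 789 with siRNA A and 430.5, 492 and 519 with siRNA B. All 12 knockdown libraries were below all 6 Scramble libraries, the closest pair being the highest *Zfp598* siRNA A library at 825 CPM and the lowest Scramble library at 827. *Vgf* fell by 0.74 ± 0.17 (SE) on the log2 scale in *Fmr1* KD (0.598-fold, adjusted p = 0.0105) and by 0.79 ± 0.17 in *Zfp598* KD (0.579-fold, adjusted p = 0.0188). With counts summed per siRNA, 2 sums against 2, the falls were 0.74 and 0.83 and did not pass (adjusted p = 0.999 and 1). Leaving out *Zfp598* siRNA B replicate 1, 2 or 3 also ended the pooled *Zfp598* call (adjusted p up to 0.0571).
By siRNA, the B sequences gave the lower *Vgf* levels. The log2 fold changes of *Vgf* were -0.43 with *Fmr1* siRNA A (adjusted p = 0.0387) and -1.11 with *Fmr1* siRNA B (adjusted p = 1.65e-05), and their difference was -0.68 ± 0.21 (adjusted p = 0.0224). For the *Zfp598* siRNAs they were -0.48 (A, adjusted p = 0.036) and -1.15 (B, adjusted p = 1.03e-05), and their difference was -0.66 ± 0.21 (adjusted p = 0.0268). The Scramble siRNAs did not differ beyond their spread (0.10 ± 0.15, adjusted p = 0.663). The *Vgf* call with *Fmr1* siRNA A was lost without Scramble siRNA A replicate 1 or 3 or any *Fmr1* siRNA A replicate (adjusted p up to 0.152), and that with *Zfp598* siRNA A without Scramble siRNA A replicate 1 or 3 or *Zfp598* siRNA A replicate 1 (up to 0.112). The *Vgf* difference between siRNAs was lost in 5 leave-outs for *Fmr1* (Scramble A2, B2 and B3, *Fmr1* A3 and B1, adjusted p up to 0.0722) and in 7 for *Zfp598* (Scramble A2, B2 and B3, *Zfp598* A2, A3, B1 and B2, up to 0.0941). Without *Zfp598* siRNA A replicates 2 and 3, the *Zfp598* difference was -0.17 (adjusted p = 0.56). Directly compared, *Vgf* was lower with *Zfp598* siRNA B than A by 0.56 (adjusted p = 0.00603), which was lost without *Zfp598* siRNA A replicate 2 (adjusted p = 0.0518) and was -0.20 (adjusted p = 0.14) with the share of the most counted feature as a covariate. With that covariate the pooled changes of *Vgf* were -0.72 and -0.99, and both passed.

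*Chga* and *Chgb* encode chromogranin A and secretogranin 1, the granins that drive the condensation of vesicle cargo (chr12:102520484-102531300 and chr2:132622464-132637904 in GRCm39, both plus strand). *Chga* measured 129.9, 124 and 139 CPM with Scramble siRNA A and 54.6, 60.6 and 57.7 with Scramble siRNA B. In *Fmr1* KD it measured 70.0, 69.3 and 75.8 with siRNA A and 64.3, 69.6 and 82.0 with siRNA B, and in *Zfp598* KD 64.2, 63.6 and 65.1 with siRNA A and 71.7, 91.2 and 69.7 with siRNA B. The 12 knockdown libraries all lay between the groups of Scramble siRNA B, which was lowest, and Scramble siRNA A, which was highest. Between the Scramble siRNAs, *Chga* differed by -1.19 ± 0.10 (log2, B against A, adjusted p = 1.1e-07), a larger value than that of any of the 4 knockdown siRNAs against its Scramble siRNA. Pooled over both siRNAs, *Chga* stood at -0.39 (adjusted p = 0.265) for *Fmr1* KD and at -0.41 (adjusted p = 0.29) for *Zfp598* KD.
Against the Scramble siRNA of the same letter, *Chga* fell by 0.87 with *Fmr1* siRNA A (adjusted p = 2.86e-06) and by 1.03 with *Zfp598* siRNA A (adjusted p = 2.38e-06). With the B siRNAs it rose, by 0.32 for *Fmr1* (adjusted p = 0.0283) and 0.43 for *Zfp598* (adjusted p = 0.00399). These directions depended on which Scramble libraries served as control: against all 6, the change of *Chga* was -0.27 for *Fmr1* siRNA B (adjusted p = 0.0352) and -0.17 for *Zfp598* siRNA B (adjusted p = 0.175). The rise of *Chga* with *Fmr1* siRNA B was lost without Scramble siRNA B replicate 1 or 3 or *Fmr1* siRNA B replicate 3 (adjusted p up to 0.162). Between the *Zfp598* siRNAs, *Chga* was higher with B by 0.27 (adjusted p = 0.0494), a call that 6 of 18 leave-outs ended (without *Fmr1* A1 or B2, or *Zfp598* A1, A2, A3 or B2, adjusted p up to 0.285).

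*Chgb* had the same highest and lowest siRNA groups. It measured 297, 373 and 281 CPM with Scramble siRNA A and 93.6, 122 and 102 with Scramble siRNA B. In *Fmr1* KD it measured 119.7, 123 and 144 with siRNA A and 124, 131 and 159 with siRNA B, and in *Zfp598* KD 211, 165 and 203 with siRNA A and 193, 195 and 176 with siRNA B. Scramble siRNA A was again above all other libraries, and Scramble siRNA B overlapped the knockdown range at 1 library. *Chgb* was 0.333-fold as high with Scramble siRNA B as with Scramble siRNA A (log2 -1.58 ± 0.13, adjusted p = 6.01e-08). Against the same-letter control, *Chgb* fell by 1.30 with *Fmr1* siRNA A (adjusted p = 3.51e-07) and by 0.72 with *Zfp598* siRNA A (adjusted p = 0.000954). With both B siRNAs *Chgb* was higher, by 0.38 for *Fmr1* (adjusted p = 0.0339) and 0.83 for *Zfp598* (adjusted p = 6.51e-05).
The difference between the siRNA effects on *Chgb* was 1.69 ± 0.18 in *Fmr1* KD (adjusted p = 1.29e-06) and 1.55 ± 0.18 in *Zfp598* KD (adjusted p = 4.13e-06), and on *Chga* it was 1.19 ± 0.15 (adjusted p = 5.64e-06) and 1.46 ± 0.15 (adjusted p = 8.48e-07). Within each knockdown the B and A siRNAs themselves did not differ in *Chgb* beyond their spread, with values of 0.10 ± 0.13 in *Fmr1* KD (adjusted p = 0.622) and -0.04 ± 0.13 in *Zfp598* KD (adjusted p = 0.853). For *Chga* the value between the *Fmr1* siRNAs was 0.01 ± 0.10 (adjusted p = 0.978). Against all 6 Scramble libraries, *Chgb* stood at -0.41 with *Fmr1* siRNA B (adjusted p = 0.0122) and at 0.07 with *Zfp598* siRNA A (adjusted p = 0.68), both opposite in sign to the same-letter comparison. The rise of *Chgb* with *Fmr1* siRNA B was lost without Scramble siRNA B replicate 1 or 3 or *Fmr1* siRNA B replicate 3 (adjusted p up to 0.172). With all 6 as control the value for *Zfp598* siRNA B was 0.04 (adjusted p = 0.825).

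**Figure D3:**
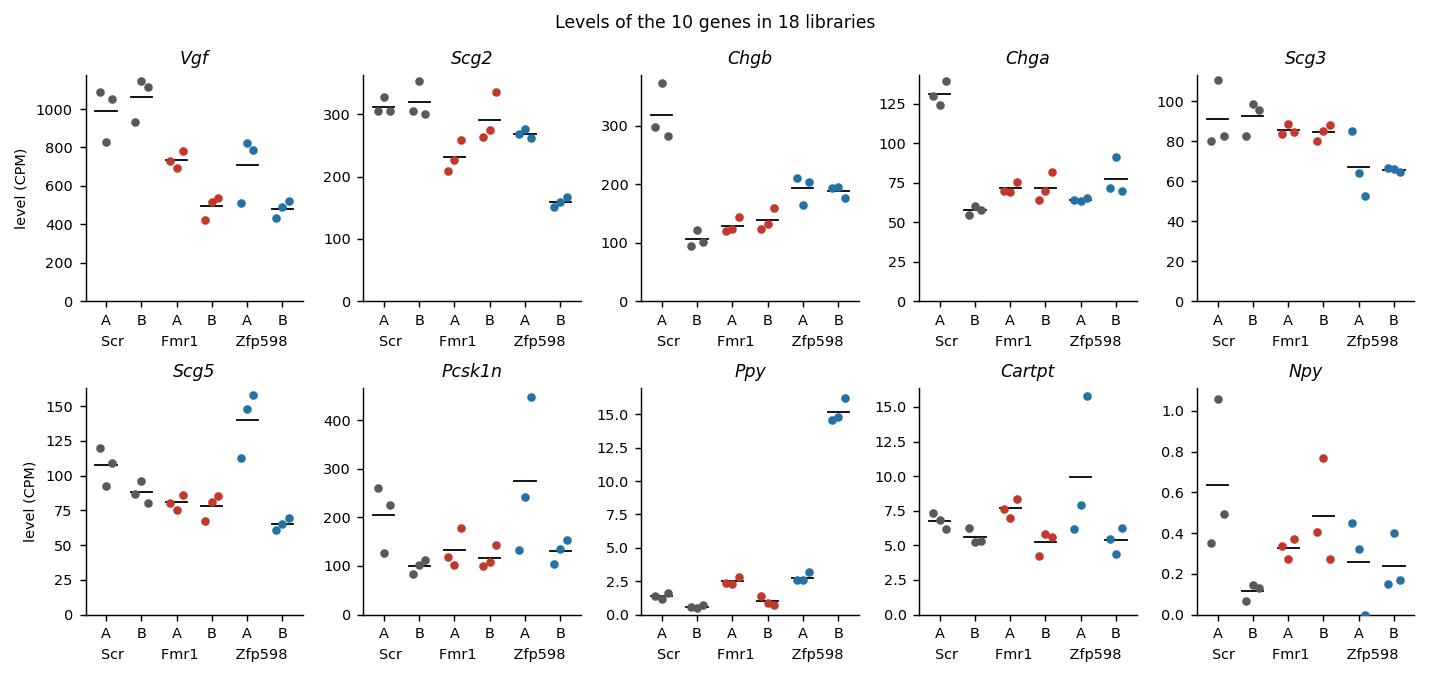
Level of each of the 10 genes in CPM (linear axes from 0) in the 18 libraries, by condition (Scr, Scramble KD; Fmr1; Zfp598) and siRNA A or B, with 1 point per library and a bar at the mean of 3. *Chga* and *Chgb* are highest with Scramble siRNA A, *Vgf* is lower in all 12 knockdown libraries, and *Ppy* stands at 14.6 to 16.2 CPM with *Zfp598* siRNA B.

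*Scg2* encodes secretogranin II, the precursor of secretoneurin (chr1:79412386-79417837 in GRCm39, minus strand). It was the granin with the most even control levels, at 305, 328 and 305 CPM with Scramble siRNA A and 306, 354 and 300.5 with Scramble siRNA B. In *Fmr1* KD it measured 209, 228 and 259.6 with siRNA A and 264, 275 and 335 with siRNA B, and in *Zfp598* KD 268, 277 and 262 with siRNA A and 152, 159 and 167 with siRNA B. All 6 *Zfp598* libraries were below all 6 Scramble libraries, the lowest being the 3 of siRNA B. *Scg2* was 0.498-fold as high with *Zfp598* siRNA B (log2 -1.01 ± 0.10, adjusted p = 3.99e-07), and with *Zfp598* siRNA A it stood at -0.22 ± 0.10 (adjusted p = 0.157). The siRNA effects differed by -0.79 ± 0.14 (adjusted p = 0.000332).
The pooled *Zfp598* value of *Scg2*, -0.56 ± 0.15, had an adjusted p of 0.0528. It passed without *Fmr1* siRNA B replicate 3 or any 1 *Zfp598* siRNA A replicate (adjusted p down to 0.0218), with DESeq2 (adjusted p = 0.0162), without *Zfp598* siRNA A replicates 2 and 3 together (-0.76, adjusted p = 0.00643), with the share of the most counted feature as a covariate (-0.67, adjusted p = 0.0145) and with the siRNA letter as a term (adjusted p = 0.0289). In *Fmr1* KD, *Scg2* fell by 0.43 with siRNA A (adjusted p = 0.00257), stood at -0.13 with siRNA B (adjusted p = 0.348) and at -0.27 pooled (adjusted p = 0.297). The difference between those siRNA effects was 0.30 ± 0.14 (adjusted p = 0.136). Directly compared, *Scg2* was higher with *Fmr1* siRNA B than with A by 0.33 (adjusted p = 0.0165), a call lost without *Fmr1* siRNA A replicate 1 or 2 or *Fmr1* siRNA B replicate 3 (adjusted p up to 0.123).

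*Scg3* encodes secretogranin III, which binds chromogranin A and cholesterol at the vesicle membrane (chr9:75546929-75591396 in GRCm39, minus strand). An unclassified transcript, *Gm37871*, overlaps it on the other strand, and the strand setting of the counting is not given in the sources used here. *Scg3* measured 80.0, 110.5 and 82.5 CPM with Scramble siRNA A, 82.8, 98.9 and 95.8 with Scramble siRNA B, 83.5, 88.4 and 84.4 with *Fmr1* siRNA A and 80.2, 85.1 and 88.0 with *Fmr1* siRNA B. It measured 85.3, 63.9 and 52.7 with *Zfp598* siRNA A and 66.7, 66.1 and 64.6 with *Zfp598* siRNA B. Only *Zfp598* siRNA A replicate 1, at 85.3 CPM, overlapped the Scramble range. *Scg3* fell by 0.46 ± 0.10 in pooled *Zfp598* KD (0.726-fold, adjusted p = 0.0244) and stood at -0.11 ± 0.10 in *Fmr1* KD (adjusted p = 0.578).
By siRNA, *Scg3* fell by 0.49 with *Zfp598* siRNA B (adjusted p = 0.00972) and by 0.42 with *Zfp598* siRNA A (adjusted p = 0.0469). The siRNA A call was lost in 14 of 18 leave-outs (all but those of Scramble A1, A3 and B1 and *Zfp598* A1, adjusted p up to 0.261), and without *Zfp598* siRNA A replicates 2 and 3 together the value was -0.11 (adjusted p = 0.735). The pooled call on *Scg3* was lost without Scramble siRNA A replicate 2, Scramble siRNA B replicate 2 or 3, or any *Zfp598* siRNA B replicate (adjusted p up to 0.069), and with counts summed per siRNA (-0.42, adjusted p = 1).

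*Ppy* encodes pancreatic polypeptide, a hormone of the islet PP cell and a member of the neuropeptide Y family (chr11:101990756-101992145 in GRCm39, minus strand, 500 bp of exon). Its counts were low outside the libraries of *Zfp598* siRNA B. It measured 1.41, 1.19 and 1.63 CPM with Scramble siRNA A and 0.592, 0.511 and 0.703 with Scramble siRNA B, from 7 to 23 counts. In *Fmr1* KD it measured 2.37, 2.31 and 2.81 with siRNA A and 1.42, 0.840 and 0.687 with siRNA B, from 10 to 38 counts. In *Zfp598* KD, whose rise chose the gene, it measured 2.56, 2.56 and 3.20 with siRNA A (18 to 34 counts) and 14.6, 14.8 and 16.2 with siRNA B (185 to 196 counts). The 3 libraries of *Zfp598* siRNA B thus stood far above all others, while siRNA A overlapped *Fmr1* siRNA A.
As a description, *Ppy* was 24.7-fold higher with *Zfp598* siRNA B than with Scramble siRNA B (log2 4.63) and 1.92-fold higher with *Zfp598* siRNA A than with Scramble siRNA A (log2 0.94), and the pooled value was 9.11-fold (log2 3.19). Against all 6 Scramble libraries the log2 values of *Ppy* were 4.03 for siRNA B and 1.55 for siRNA A. The *Ppy* levels of the *Zfp598* siRNAs differed 5.57-fold, and *Zfp598* itself stood at 0.344-fold with A and 0.348-fold with B. In the *Fmr1* comparison, which shares the Scramble libraries, *Ppy* rose 1.77-fold with siRNA A (log2 0.82 ± 0.24, adjusted p = 0.0161) and stood at 1.62-fold with siRNA B (log2 0.69 ± 0.31, adjusted p = 0.136) and at 1.74-fold pooled (log2 0.80 ± 0.54, adjusted p = 0.424). Its level in those Scramble libraries was part of what chose the gene, so these *Fmr1* values are not independent of the choice. The siRNA A call was lost without Scramble siRNA A replicate 2 or *Fmr1* siRNA A replicate 3 (adjusted p up to 0.0717). *Ppy* was also lower with the B than with the A siRNA in Scramble KD (log2 -1.20 ± 0.30, adjusted p = 0.00566) and in *Fmr1* KD (log2 -1.33 ± 0.25, adjusted p = 0.000467), the opposite of its order in *Zfp598* KD. The Scramble value, too, comes from libraries that were part of the choice of the gene.

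*Pyy*, the peptide YY gene of the same family, lies next to *Ppy* on chromosome 11 (chr11:101997502-101998658 in GRCm39), 5356 bases away with no annotated gene between them. It belongs to the list of other peptide precursors, not to the 10 members. *Pyy* measured 1.15, 0.397 and 0.850 CPM with Scramble siRNA A, 0.790, 0.365 and 0.320 with Scramble siRNA B, 1.15, 0.950 and 1.48 with *Fmr1* siRNA A and 0.405, 0.490 and 0.687 with *Fmr1* siRNA B. In *Zfp598* KD it measured 1.43, 1.28 and 1.07 with siRNA A and 1.86, 1.68 and 2.64 with siRNA B. It was highest with *Zfp598* siRNA B, where *Ppy* was highest too, at 21 to 31 counts per library. *Pyy* rose 2.65-fold in pooled *Zfp598* KD (log2 1.41 ± 0.36, adjusted p = 0.0428) and 4.10-fold with siRNA B (log2 2.04 ± 0.40, adjusted p = 0.000778), and stood at 1.65-fold with siRNA A (adjusted p = 0.286).

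*Npy* and *Cartpt* encode neuropeptide Y and the cocaine- and amphetamine-regulated transcript peptide, both abundant in hypothalamic and sympathetic neurons (chr6:49799026-49806489, plus strand, and chr13:100034990-100047006, minus strand, in GRCm39). *Npy* had 0 to 16 counts per library and was not tested. Its counts were 4, 16 and 7 with Scramble siRNA A, 1, 2 and 2 with Scramble siRNA B, 5, 4 and 5 and 6, 11 and 4 with *Fmr1* siRNAs A and B, and 6, 3 and 0 and 2, 5 and 2 with *Zfp598* siRNAs A and B. The *Npy* counts with Scramble siRNA A were all above those with Scramble siRNA B, and the library with 0 counts allows up to 0.533 CPM.
*Cartpt* ranged from 5.25 to 7.31 CPM in Scramble KD (median 6.21), from 4.25 to 8.36 in *Fmr1* KD (median 6.40) and from 4.40 to 15.8 in *Zfp598* KD (median 6.19). The groups overlapped, and the pooled changes of 0.06 ± 0.24 and 0.26 ± 0.24 did not pass (adjusted p = 0.916 and 0.611). Between the *Zfp598* siRNAs *Cartpt* was lower with B by 0.82 (adjusted p = 0.0164), a call lost without *Zfp598* siRNA A replicate 3 or *Zfp598* siRNA B replicate 2 (adjusted p up to 0.17) and at -0.32 (adjusted p = 0.317) with the share of the most counted feature as a covariate.

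*Scg5* encodes 7B2, the chaperone that proprotein convertase 2 needs to mature, and *Pcsk1n* encodes proSAAS, an inhibitor of proprotein convertase 1 (chr2:113606688-113660094, minus strand, and chrX:7786043-7790649, plus strand, in GRCm39). Among the convertases, named here for these partners and not for their values, *Pcsk2* was expressed, at 3.56 to 7.90 CPM (means per siRNA), while *Pcsk1* had at most 3 counts in any library. *Scg5* measured 119.9, 92.7 and 109 CPM with Scramble siRNA A, 87.1, 96.1 and 80.5 with Scramble siRNA B, 80.6, 75.3 and 86.2 with *Fmr1* siRNA A and 67.5, 81.3 and 85.3 with *Fmr1* siRNA B. It measured 113, 148 and 158 with *Zfp598* siRNA A and 60.9, 65.1 and 69.6 with *Zfp598* siRNA B. All libraries of *Zfp598* siRNA B lay below the Scramble range, and replicates 2 and 3 of *Zfp598* siRNA A lay above it while replicate 1 lay within it. The pooled value was 0.07 ± 0.20 (adjusted p = 0.897).
*Scg5* fell by 0.43 with *Zfp598* siRNA B (adjusted p = 0.0131) and by 0.41 with *Fmr1* siRNA A (adjusted p = 0.0183), and rose by 0.38 with *Zfp598* siRNA A (adjusted p = 0.0484). The difference between the *Zfp598* siRNA effects on *Scg5* was -0.81 ± 0.17 (adjusted p = 0.00201). The rise with *Zfp598* siRNA A was lost in 15 of 18 leave-outs (all but those of Scramble A1, *Fmr1* B1 and *Zfp598* A1, adjusted p up to 0.234), and without *Zfp598* siRNA A replicates 2 and 3 the value was 0.06 (adjusted p = 0.85). The *Scg5* fall with *Zfp598* siRNA B was lost without Scramble siRNA B replicate 2 or *Zfp598* siRNA B replicate 1 (adjusted p up to 0.0749), and that with *Fmr1* siRNA A without Scramble siRNA A replicate 1 or 3 or *Fmr1* siRNA A replicate 1 or 2 (up to 0.105).

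*Pcsk1n* varied widely within a single siRNA. It measured 260.5, 126 and 225 CPM with Scramble siRNA A and 83.5, 103 and 112 with Scramble siRNA B. In *Fmr1* KD it measured 118, 101 and 178 with siRNA A and 100.2, 108 and 142 with siRNA B, and in *Zfp598* KD 133, 241 and 448 with siRNA A and 103, 135 and 153 with siRNA B. The 4 highest libraries, at 225 to 448 CPM, were also those in which the most counted feature took 8.83 to 25.8% of the counts, beside 5.00 to 7.93% in the other 14. Without a covariate, none of the pooled or same-letter comparisons with Scramble KD passed for *Pcsk1n* (pooled log2 -0.28 ± 0.32 and 0.41 ± 0.32, adjusted p = 0.663 and 0.528). Between siRNAs of 1 target, *Pcsk1n* was lower for B by 1.04 in Scramble KD (adjusted p = 0.0219) and by 1.06 in *Zfp598* KD (adjusted p = 0.0132).
With the share of that feature as a covariate, *Pcsk1n* was lower with *Fmr1* siRNA A than with Scramble siRNA A (-0.36, adjusted p = 0.00899). With the same covariate, the value between the *Zfp598* siRNAs was -0.04 (adjusted p = 0.859), and without *Zfp598* siRNA A replicates 2 and 3 it was -0.01 (adjusted p = 0.992). The Scramble call on *Pcsk1n* was lost without Scramble siRNA A replicate 1 or 3 or Scramble siRNA B replicate 1 or 2 (adjusted p up to 0.114), and the *Zfp598* call without *Zfp598* siRNA A replicate 3 or siRNA B replicate 1 (up to 0.172). *Eras* overlaps *Pcsk1n* on the other strand, so reads of these genes may not be told apart. *Cartpt* and *Scg5* were also highest in *Zfp598* siRNA A replicate 3, at 15.8 and 158 CPM, and *Scg3* was lowest there, at 52.7 CPM.

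**Figure D4:**
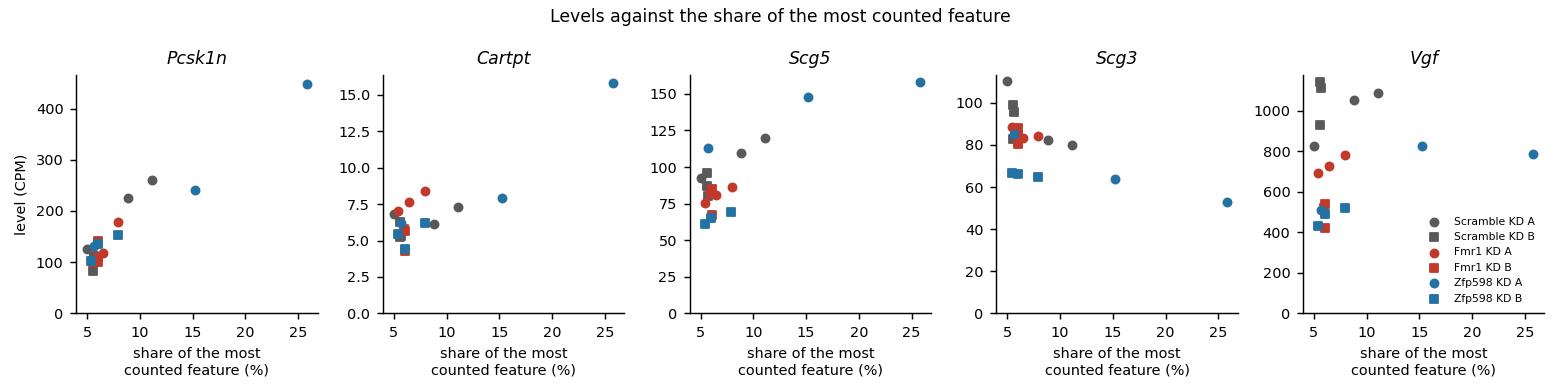
Level of 5 members in CPM (vertical axes from 0) against the percent of each library's counts taken by the feature most counted over all libraries together, 1 point per library, with circles for siRNA A and squares for siRNA B. *Pcsk1n*, *Cartpt* and *Scg5* are highest and *Scg3* is lowest in the library at 25.8%, while *Vgf* is highest in Scramble libraries at 5.56 and 5.68%.

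For the enzymes that cleave and modify these precursors, no pooled change passed the test. Of 11 prohormone processing enzymes, 8 were tested, and by edgeR 0 passed in *Fmr1* KD (1 at an unadjusted p under 0.05, and 1 by DESeq2) and 0 in *Zfp598* KD (0 and 0 likewise). Their median log2 fold changes were -0.03 and 0.10, beside 0.003 and 0.012 for all genes. *Cpe*, the carboxypeptidase that trims cleaved peptides, named like *Pam* for its role after its value was seen, stood at -0.01 ± 0.09 and 0.07 ± 0.09 in the pooled *Fmr1* and *Zfp598* comparisons, and *Pam*, which amidates peptides, at -0.30 ± 0.15 and -0.29 ± 0.15. By siRNA, 2 of the 8 enzymes rose and 2 fell with *Fmr1* siRNA A, 4 rose and 1 fell with *Fmr1* siRNA B, 3 rose and 0 fell with *Zfp598* siRNA A, and 1 rose and 3 fell with *Zfp598* siRNA B. Between the Scramble siRNAs themselves 2 were higher and 1 lower with B.
Of 27 genes of dense-core vesicle formation and release, 21 were tested. In *Fmr1* KD 4 fell and 0 rose: *Unc13a*, a vesicle priming factor (-0.35, adjusted p = 0.0242), *Vamp2*, the vesicle SNARE (-0.37, adjusted p = 0.0258), *Rab27a*, a GTPase of vesicle docking (-0.52, adjusted p = 0.0381), and *Ccdc186*, a vesicle maturation factor named after its value was seen (-0.32, adjusted p = 0.0427). Of the *Fmr1* siRNAs against the same-letter Scramble siRNA, *Unc13a*, *Vamp2* and *Rab27a* passed only with A (-0.57, -0.54 and -0.80), and *Ccdc186* only with B (-0.50). *Unc13a* was lower with *Zfp598* siRNA A as well (-0.32, adjusted p = 0.0227). *Unc13a* and *Ccdc186* also passed between the Scramble siRNAs (-0.29 and 0.30, B against A). In *Zfp598* KD 1 fell, *Rab3c*, a vesicle GTPase (-0.66, adjusted p = 0.0454). The medians over this list were -0.15 and -0.13. By siRNA, 10 of the 21 fell and 0 rose with *Fmr1* siRNA A, 3 fell and 3 rose with *Fmr1* siRNA B, 5 fell and 1 rose with *Zfp598* siRNA A, and 6 fell and 1 rose with *Zfp598* siRNA B. Between the Scramble siRNAs, 8 of the 21 were lower and 3 higher with B. The share of all genes passing in these comparisons is given above with the members.
Of 63 other peptide precursors, 19 were tested. By edgeR 0 passed in *Fmr1* KD (2 at an unadjusted p under 0.05, and 0 by DESeq2), with a median of -0.09. In *Zfp598* KD 1 rose, *Pyy*, and 1 fell, *Nucb2*, the precursor of nesfatin-1 (-0.67, adjusted p = 0.0202), with a median of 0.29. None of the 7 receptors of the member peptides had enough counts to be tested.

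**Figure D5:**
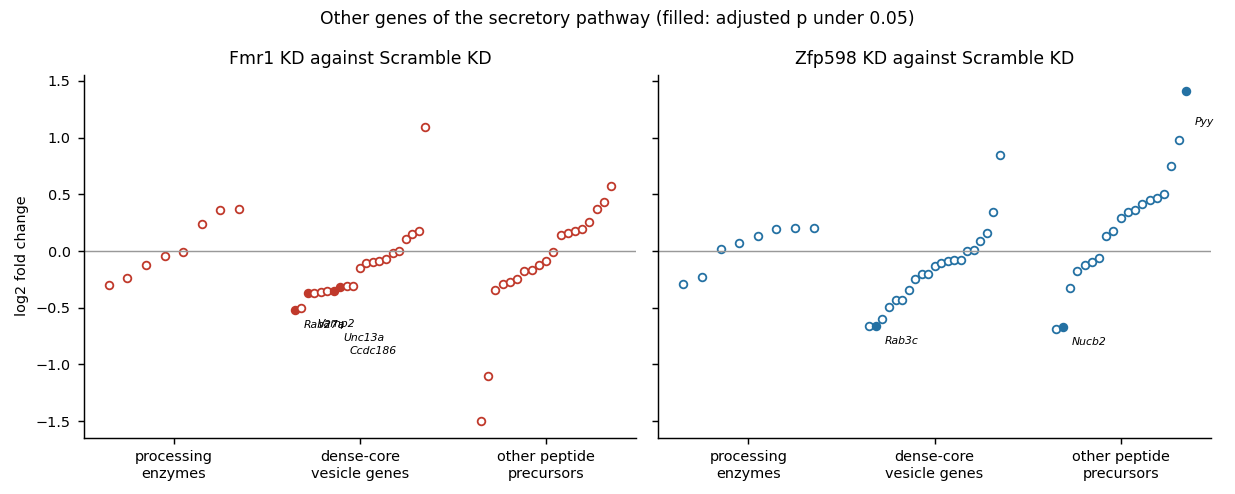
Log2 fold changes in both pooled knockdowns for the tested genes of 3 lists, ordered by value within each list (8 processing enzymes, 21 dense-core vesicle genes, 19 other peptide precursors), with filled circles at an adjusted p under 0.05. The filled genes are 4 vesicle genes below 0 in *Fmr1* KD, and *Rab3c* and *Nucb2* below 0 and *Pyy* above 0 in *Zfp598* KD.

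The genes whose log2 level followed each member most closely over the 18 libraries were sought among genes with a mean of at least 1 CPM. For *Ppy* they were *2810013P06Rik* (Pearson r = 0.935, Spearman rho = 0.849), *Ccnt1*, which encodes cyclin T1 (0.93 and 0.812), and *Gata3*, a transcription factor of sympathetic neurons (0.917 and 0.928). *Gata3* measured 13.2 to 16.9 CPM in Scramble KD, 13.5 to 19.1 after *Fmr1* knockdown and 17.4 to 26.9 after *Zfp598* knockdown. It was picked for its likeness to *Ppy* over these same libraries, so these ranges are a description only. Closest to *Vgf* was *Gtpbp2*, a GTP-binding protein of ribosome rescue (0.932 and 0.934), closest to *Scg5* was *Pfkm*, the muscle phosphofructokinase (0.976 and 0.953), and closest to *Pcsk1n* was *Uqcrc1*, a subunit of respiratory complex III (0.975 and 0.922). The leading genes for the others were *Megf10* for *Scg2* (0.947 and 0.80), *Atp5f1c* for *Scg3* (0.934 and 0.886), *Gm11696* for *Cartpt* (0.919 and 0.742), *Tmtc1* for *Chgb* (0.902 and 0.837) and *Mettl24* for *Chga* (0.896 and 0.781). These values are descriptions over libraries that share the 6 siRNA groups, and for *Ppy* they include the 3 libraries of *Zfp598* siRNA B, in which it stands apart. Among the members, *Ppy* and *Scg2* had the most negative r, -0.92, and *Scg5* and *Pcsk1n* had 0.77. *Scg5*, *Pcsk1n* and *Cartpt* were highest and *Scg3* was lowest in *Zfp598* siRNA A replicate 3. The part of that library in their correlations was not tested.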

How the data were processed

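The authors trimmed reads with Trim Galore, mapped them with STAR on GRCm39 and assigned them to genes with featureCounts. What they deposited are raw counts of 55414 genes in 18 libraries. Versions, the annotation release, the strand setting and the handling of reads with several matches are not given in the sources used here. Gene positions, exon lengths and names came from GENCODE M39 on GRCm39, which held 98.8% of the gene IDs, and promoters from RefSeq. All 18 count columns were used (0 left out). No molecular identifiers are mentioned, so the floor given for a count of 0 covers counting error only, and none of the 18 pairs of libraries within a siRNA group agreed within sampling noise.

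Counts were analyzed with edgeR 4.0.16 in R 4.3.3 (limma 3.58.1): filterByExpr with a minimum count of 10 and a minimum total of 15, TMM library sizes, quasi-likelihood fits and Benjamini-Hochberg adjustment over the 17901 genes tested, at an adjusted p of 0.05. The pooled comparisons used a model of 3 conditions, after the study, and the siRNA comparisons a model of 6 siRNA groups, so all 18 libraries share 1 estimate of the spread. Levels are CPM on TMM-scaled library sizes, or these per kb of exon, and log2 levels for correlations had a prior count of 2. The steps were tested on simulated data: for the pooled *Zfp598* comparison, 200 of 200 genes changed by known folds were recovered with 21 false calls among 17744 genes, and for *Fmr1* siRNA B, 199 of 200 with 16 among 17731. The changed genes were drawn from those with higher counts. Apart from them, the simulated siRNAs of a condition did not differ, while the real ones differed in 22.7 to 35.3% of genes. The recovery therefore does not show how the pooled test performs where the siRNAs of a condition differ.

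The alternatives were DESeq2 1.42.0 and its size factors, no filter, a replicate block, the siRNA letter as a term, counts summed per siRNA, all 6 Scramble libraries as control, a 2-fold criterion and leaving out each library. Replicate numbers were not used to pair libraries in the main models. Leaving out *Zfp598* siRNA A replicates 2 and 3 together, and the share of the most counted feature as a covariate, were added after seeing the data. The members, the lists and the rule for named genes were chosen with earlier results of these data known. That rule takes all members, the siRNA targets, the genes closest to each member (3 for *Ppy*, 1 for the others), and up to 3 passing genes per list and pooled comparison; other genes named are marked as such, apart from *Col1a1*, given as the other tested marker of its list. Values of some marker genes are not reported here.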

Additional observations from a re-analysis of the deposited data

Results flagged for a closer look

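In 3 of 30 groups of 6 libraries (10 genes in 3 conditions), 1 library lay farther from the others than Dixon's critical ratio for 6 values, 0.625, allows, where chance marks about 5% of groups. *Npy* was 0.77 CPM in *Fmr1* siRNA B replicate 2, from 11 counts, beside 0.272 to 0.405 in the other *Fmr1* KD libraries. *Cartpt* was 15.8 CPM in *Zfp598* siRNA A replicate 3, beside 4.40 to 7.89, and *Chga* was 91.2 CPM in *Zfp598* siRNA B replicate 2, beside 63.6 to 71.7.

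The effect of a siRNA here is its change against the same-letter Scramble siRNA, a pairing by letter alone. By an edgeR test of the difference itself, the effects of siRNA B and siRNA A on the same target differed in 8 cases. In *Fmr1* KD the log2 difference, B minus A, was 1.69 for *Chgb*, 1.19 for *Chga* and -0.68 for *Vgf*. In *Zfp598* KD it was 1.55 for *Chgb*, 1.46 for *Chga*, -0.79 for *Scg2*, -0.81 for *Scg5* and -0.66 for *Vgf*. Each rests on both Scramble siRNAs as well as on both knockdown siRNAs. Between the *Fmr1* siRNAs directly, B against A, *Chgb* stood at 0.10 (adjusted p = 0.622) and *Chga* at 0.01 (adjusted p = 0.978). Between the *Zfp598* siRNAs they stood at -0.04 (adjusted p = 0.853) and 0.27 (adjusted p = 0.0494). Between the Scramble siRNAs they stood at -1.58 and -1.19.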

How the results depend on the processing

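Of 2466 member values recomputed under another setting, 2312 kept their side of the threshold (60 of them passed in neither setting and changed sign), 111 no longer passed, 34 newly passed, 5 reversed and 4 values of *Ppy*, given with no test, moved by more than the spread between libraries. With the 2-fold criterion, 0 members passed by edgeR in each pooled knockdown (0 and 0 at an unadjusted p under 0.05 and that fold). With counts summed per siRNA, edgeR passed 0 and 0 members (1 and 1 at an unadjusted p under 0.05). With *Zfp598* siRNA A replicates 2 and 3 left out, 3 members passed with *Zfp598* siRNA A and 2 between the *Zfp598* siRNAs. With the share of the most counted feature as a covariate, 3 passed with *Zfp598* siRNA A, and 5 for the siRNA difference in *Fmr1* KD, where *Scg2* (0.295, adjusted p = 0.0491) and *Pcsk1n* (0.505, adjusted p = 0.0111) were added. With all 6 Scramble libraries as control, *Chgb* reversed to -0.41 with *Fmr1* siRNA B and 0.074 with *Zfp598* siRNA A, and *Chga* to -0.27 and -0.17 with *Fmr1* and *Zfp598* siRNA B. The difference for *Pcsk1n* in *Zfp598* KD reversed to 0.52 with the covariate. The cause was not tested.

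Leaving out 1 library gave 1 to 1 members in pooled *Fmr1* KD, and 0 to 3 for pooled *Zfp598* KD (0 without *Zfp598* siRNA B replicate 1, 2 or 3, with 3, 4 and 3 at an unadjusted p under 0.05). By siRNA the range was 4 to 7 for *Fmr1* A, 1 to 3 for *Fmr1* B, 3 to 6 for *Zfp598* A and 5 to 6 for *Zfp598* B. Between siRNAs it was 3 to 5 for Scramble, 2 to 4 for *Fmr1* and 3 to 6 for *Zfp598* (3 without *Zfp598* siRNA A replicate 3), and for the siRNA differences 2 to 3 and 4 to 5.

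With the replicate number as a block, 1 member passed in pooled *Fmr1* KD as before, 2 passed in pooled *Zfp598* KD, and no count changed in the 11 comparisons. Deviations of same-numbered libraries correlated at -0.345 to 0.29 (median 0.0397), over 0.1 in 12 of 45 pairs. Those of differently numbered libraries correlated at -0.36 to 0.502 (median -0.0163), over 0.1 in 10 of 90 pairs.

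Each condition rests on 2 siRNAs, and the Scramble siRNAs differ from each other in 4 members, *Ppy* among them. *Ppy* outside *Zfp598* siRNA B and *Npy* in every library had at most 38 counts.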

Other observations

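The noradrenergic marker genes, which the text used to check the cell line and set beside *Chga* and *Chgb*, also held genes that rose or fell in the knockdowns. Of 13 tested, 1 rose in pooled *Fmr1* KD and 4 rose in pooled *Zfp598* KD, beside 6.54% and 1.96% of all genes in either direction. By siRNA, 0 rose and 7 fell with *Fmr1* siRNA A (beside 23.6% of all genes in either direction), and 8 rose and 0 fell with *Fmr1* siRNA B (beside 22.7%). With *Zfp598* siRNA A 2 rose and 1 fell (beside 11.9%), and with *Zfp598* siRNA B 9 rose and 1 fell (beside 26.8%). Between the Scramble siRNAs, 0 were higher and 7 lower with B (beside 22.7%). Among those that fell with *Fmr1* siRNA A, named after their values were seen, were *Th*, tyrosine hydroxylase (-1.61, adjusted p = 6.45e-07), and *Chrna3*, a nicotinic receptor subunit (-1.26, adjusted p = 4.29e-07). *Dbh*, which encodes the enzyme that makes noradrenaline, rose in both pooled knockdowns (log2 1.35 and 2.20, adjusted p = 0.0408 and 0.0061). With *Fmr1* siRNA A, where 0 of the markers rose, *Dbh* did not pass as higher. *Ddc*, aromatic amino acid decarboxylase, measured 2.62 to 3.44 CPM with Scramble siRNA A, 1.09 to 1.34 with Scramble siRNA B, 2.67 to 5.26 with *Zfp598* siRNA A and 21.3 to 24.3 with *Zfp598* siRNA B. It rose by 2.64 on the log2 scale in pooled *Zfp598* KD (adjusted p = 0.00823). Like *Ppy*, it stood far higher with *Zfp598* siRNA B than with any other siRNA (log2 4.19 against Scramble siRNA B, adjusted p = 7.37e-11), and its siRNA effects differed by 3.86 ± 0.32 (adjusted p = 9.5e-08). *Insm1*, named after its value was seen, also rose in *Zfp598* KD (0.65, adjusted p = 0.0428). The fourth riser was *Gata3*, which is also among the genes closest to *Ppy* over these libraries, so its value in *Zfp598* KD (0.57) is a description.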
